A study of Sus scrofa with 22 samples.

Results

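The genes described here carry the symbols of translation initiation factors (EIF) and elongation factors (EEF), and were measured in blood mononuclear cells of mini pigs. A gene was included if a probe set carried its symbol alone and the symbol began with EIF or EEF, leaving out EIF1AX, EIF1AY and the EIF2AK kinases. This gave 60 probe sets for 39 of the 6765 genes named on the array, and 1 probe set per gene was used, the one with the highest mean log2 intensity over all 22 arrays. All 39 passed the filter on low values, a log2 value above 5 in at least 2 arrays. A further 6 probe sets, which carried several symbols, were left out.

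The cells were isolated from heparinised blood on a density gradient, and each array held total RNA of 1 blood sample. At time 0 there were 10 control pigs, 5 females and 5 males, sampled at baseline. After 9 months there were 4 pigs on each of 3 diets, 2 females and 2 males per diet. The control diet held 5% beef tallow, the high-fat diet 20% beef tallow, and the last group ate the high-fat diet with resveratrol, a plant polyphenol, at a daily 8 mg per kg of body weight. All pigs were of the Mini Pig breed, and their age was not given in the sources used here. By the pig numbers in the labels, the 22 arrays came from 20 pigs, because pigs 8 and 25 of the control group were measured at both times.

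Protein synthesis starts when EIF2 brings the initiator tRNA to the small ribosomal subunit, while the EIF4 factors bind the mRNA cap, unwind the leader and bring in the ribosome with the help of EIF3. EIF2 leaves carrying GDP and is recharged with GTP by EIF2B, the step that stress kinases block by phosphorylating the EIF2 alpha subunit. EIF1 governs start codon choice, EIF5B joins the large subunit, and EEF1 then delivers aminoacyl-tRNAs during elongation. In lymphocytes, activation raises the rate of protein synthesis, and EIF4E is held in check by EIF4E-binding proteins that mTOR phosphorylates.

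Several features of the arrays moved with time, and their part in the results below was not tested. The mean log2 value of 9 T cell markers was 10.83 ± 0.12 (SD, n = 10) at time 0 and 10.35 ± 0.077 (SD, n = 4) in controls at 9 months, and 5 of the 9 were lower. Of 7 B cell markers listed 1 was measured, CD79B, at 10.28 ± 0.26 and 9.58 ± 0.41. All 4 cycling-cell markers were lower (list mean 9.80 ± 0.29 and 9.06 ± 0.19), as were all 3 red cell markers (10.24 ± 0.52 and 8.92 ± 0.63) and 2 of 4 NK cell markers. Of 7 monocyte markers, 1 was higher. These counts are calls at an adjusted p of 0.05 in the limma fit, which 35.0% of all probe sets tested passed between these groups. The gap between the 3′ and 5′ actin control probe sets, which widens with RNA degradation, averaged 1.42 at time 0 and 1.95, 2.36 and 1.86 for the control diet, high fat and resveratrol. By the level of the poly-A spike-in controls, the arrays fell into sets A (2 time 0 females) and B (8 at time 0), and into C (7) and D (5) at 9 months. Arrays of time 0 and of 9 months were divided separately, so no set could hold both. By mean log2 level, set A (9.12 and 9.15) lay nearer to set C (8.39 to 9.02) than to set B (7.58 to 7.85). With sets defined this way, time, age and array set cannot be told apart.

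The translation factors split in both directions between time 0 and the control diet at 9 months. The EIF2 alpha subunit, 3 of 4 EIF2B subunits, the cap-binding protein EIF4E and its partner EIF4G3 fell, while EIF5B, the helicase EIF4A1 and EIF1 rose. In the limma fit, 13 of 39 genes passed an adjusted p of 0.05, 5 higher and 8 lower. That share, 33.3%, was close to the 35.0% of all 17240 probe sets tested that passed in this comparison. The median difference of the 39 genes was 0.03 on the log2 scale, against -0.01 over all probe sets. In mixed cells, fewer cells of a type and less RNA per cell cannot be told apart.

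**Figure D1:**
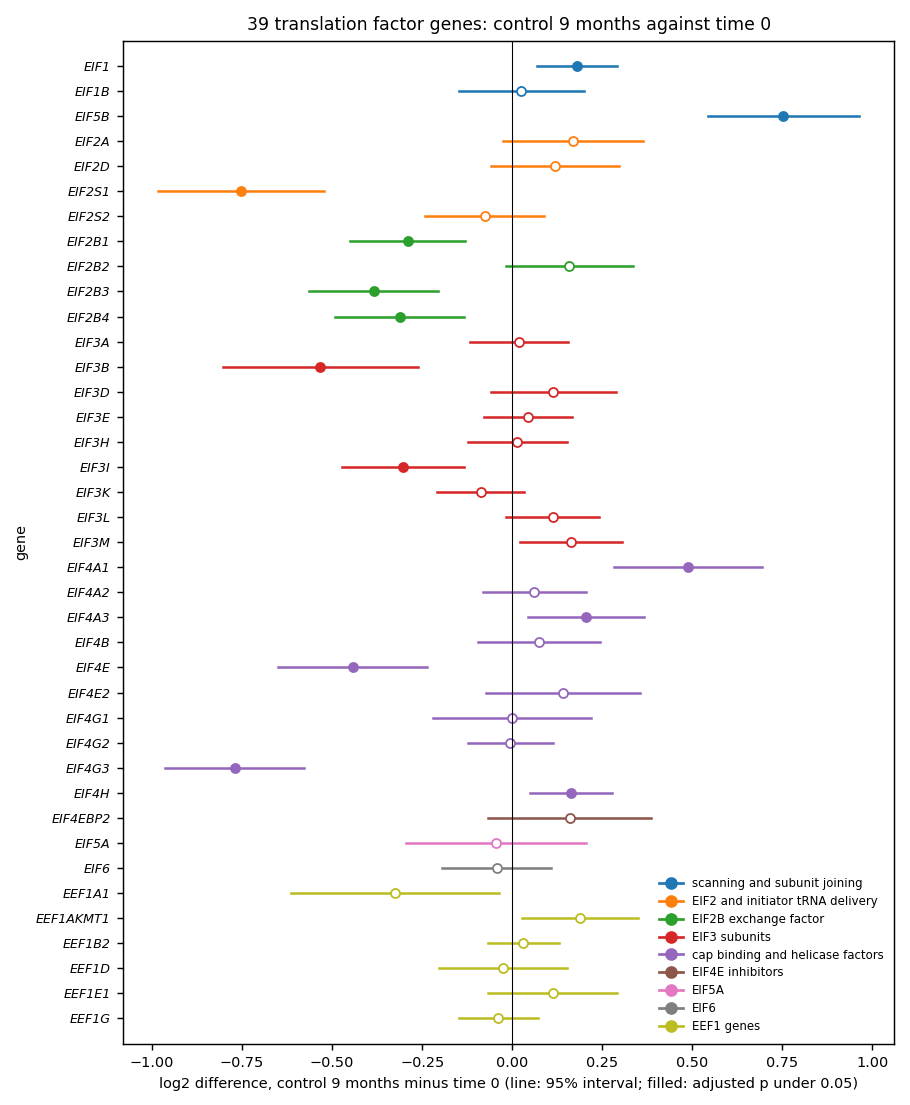
Log2 difference of the control diet at 9 months minus time 0 for each of the 39 genes, coloured by role, with its 95% interval; filled points passed an adjusted p of 0.05. EIF4G3 (-0.77), EIF2S1 (-0.75) and EIF5B (0.75) stood farthest from 0, and none of the 6 EEF1 genes passed on the probe set used.

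EIF2S1 encodes the alpha subunit of EIF2, the site of stress phosphorylation. Its log2 level ran from 10.24 through a median of 10.50 to 11.02 at time 0, and was 9.61, 10.00, 9.67 and 9.79 in control pigs 18, 8, 16 and 25 at 9 months. Every 9-month control lay below every time 0 array. The fall was 0.75 on the log2 scale (SE 0.11, adjusted p = 4.01e-05), so that the intensity dropped by 40.6%. The beta subunit gene EIF2S2 did not share it, with a difference of -0.08 (SE 0.08, adjusted p = 0.477). EIF2A and EIF2D, which can carry initiator tRNA to ribosomes without EIF2, differed by 0.17 (SE 0.093) and 0.12 (SE 0.085) and did not pass.

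EIF2B is the exchange factor that recharges EIF2, and 4 of its subunit genes were measured. EIF2B3, which codes for the gamma subunit, spanned 7.49 to 8.11 at time 0 with a median of 7.68, and read 7.41, 7.32, 7.24 and 7.36 in the 9-month controls. The groups did not overlap, and the level fell by 0.38 (SE 0.086, adjusted p = 0.00178). EIF2B4, the delta subunit gene, spanned 8.91 to 9.32 at time 0 and 8.68 to 8.81 at 9 months, again without overlap, a fall of 0.31 (SE 0.086, adjusted p = 0.00798). EIF2B1, the alpha subunit gene, fell by 0.29 (SE 0.077, adjusted p = 0.00617), with the lowest time 0 array (8.88) below the highest 9-month one (8.94). EIF2B2, the beta subunit gene, pointed the other way without passing, at 0.16 (SE 0.085, adjusted p = 0.152).

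**Figure D2:**
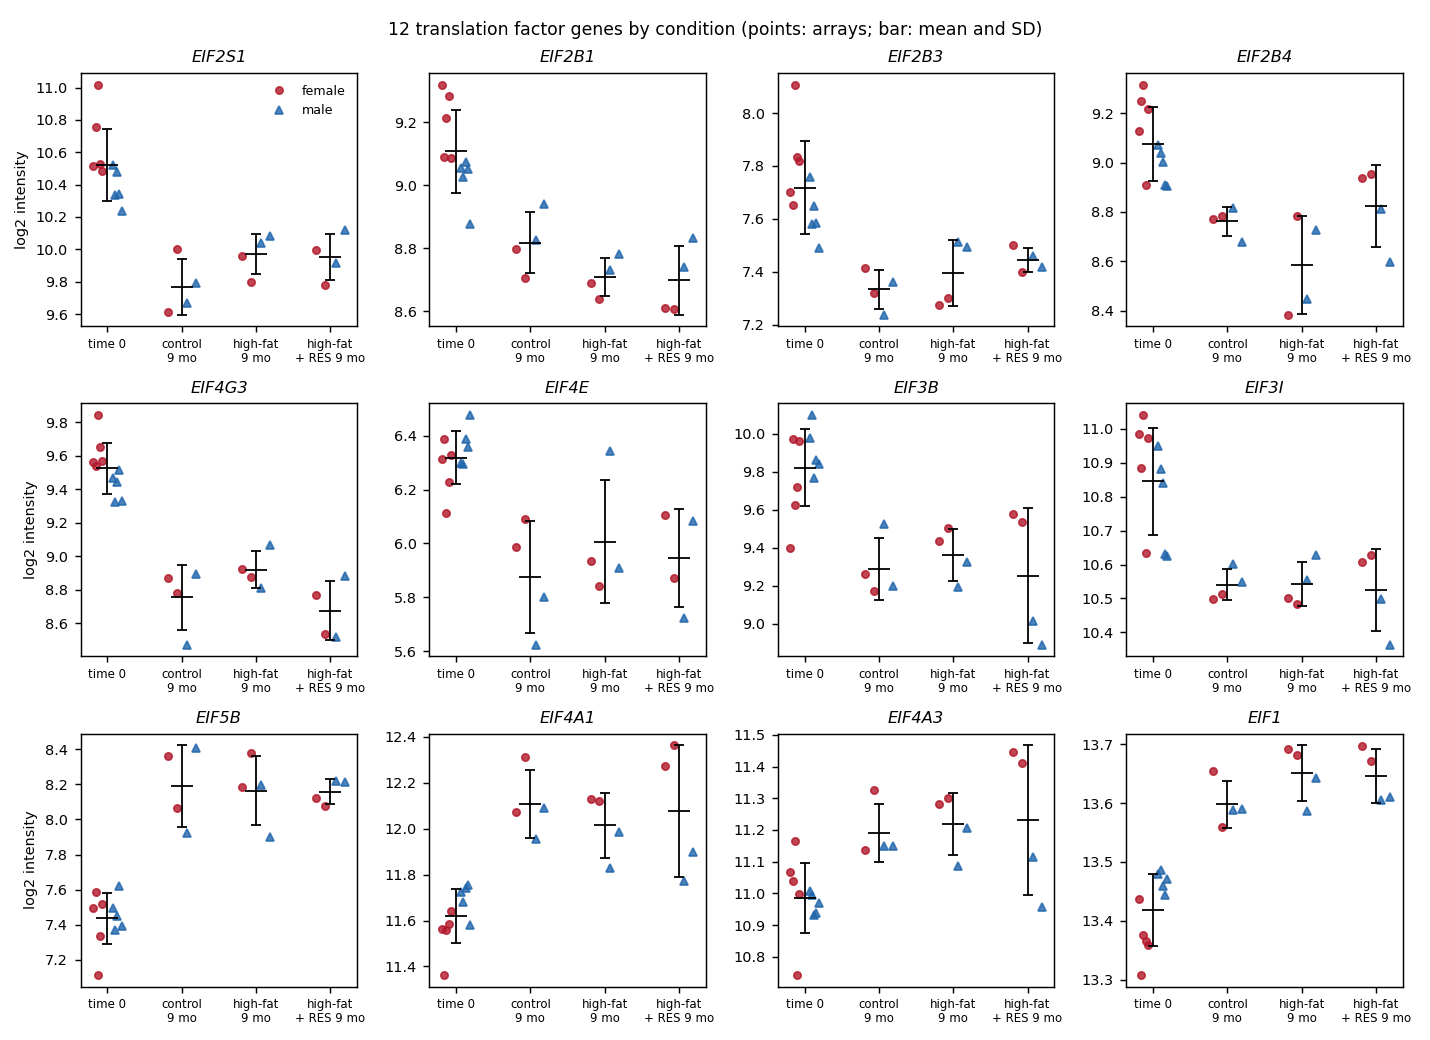
Log2 intensity of the 12 genes that passed in the same direction in all 3 comparisons of 9 months with time 0, 1 point per array (circles female, triangles male), with the mean and SD of each condition. EIF2S1 lies between 10.24 and 11.02 at time 0 and between 9.61 and 10.12 on the 3 diets, and EIF5B between 7.11 and 7.62 and between 7.90 and 8.41.

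EIF3 is a scaffold of many subunits on the small ribosomal subunit, and 9 of its genes were measured. EIF3B, a core subunit gene, ran from 9.40 to 10.10 at time 0 and was 9.26, 9.17, 9.53 and 9.20 in control pigs 18, 8, 16 and 25. Only pig 16 overlapped the time 0 range, and the fall was 0.53 (SE 0.13, adjusted p = 0.00336). EIF3I, whose protein binds EIF3B, went from 10.63 to 11.04 at time 0 to 10.50 to 10.60 at 9 months without overlap, and fell by 0.30 (SE 0.081, adjusted p = 0.00662). The other 7 did not pass on the probe sets used: they lay between -0.09 for EIF3K and 0.16 for EIF3M (SE 0.068, adjusted p = 0.0679). A dimmer EIF3D probe set averaged 5.69 ± 0.27 (SD, n = 10) at time 0 and 5.28 ± 0.22 (SD, n = 4) in the 9-month controls.

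Cap-binding and helicase factors gave 2 falls and 3 rises among 10 genes. EIF4G3, a scaffold that bridges EIF4E and the ribosome, ranged from 9.33 to 9.85 at time 0 with a median of 9.53, and was 8.87, 8.78, 8.47 and 8.90 in the 9-month controls. All of these were below the time 0 range, and the level fell by 0.77 (SE 0.093, adjusted p = 4.96e-06), the smallest p of the 39 genes. The intensity thus dropped by 41.4%. Its relatives EIF4G1, the main scaffold, and EIF4G2, which acts in cap-independent initiation, differed by -0.00 (SE 0.11) and -0.01 (SE 0.057). EIF4E, the cap-binding protein, fell by 0.44 (SE 0.10, adjusted p = 0.00184), from 6.11 to 6.48 at time 0 to 5.62 to 6.09, without overlap.

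Of the 3 EIF4A helicase genes, EIF4A1 and EIF4A3 rose and EIF4A2 did not pass. EIF4A1, the RNA helicase of the cap complex, ran from 11.36 through 11.61 to 11.76 at time 0 and was 12.07, 12.31, 11.96 and 12.09 in pigs 18, 8, 16 and 25, all above the time 0 range. The rise was 0.49 (SE 0.098, adjusted p = 7.38e-04), an increase of 40.3% in intensity. EIF4A3, a related helicase that belongs to the exon junction complex rather than to initiation, rose by 0.21 (SE 0.078, adjusted p = 0.0451). That call was lost with the pig as a replicate block (adjusted p = 0.0501) and in 12 of 25 alternatives in all, among them leaving out control pig 8 (0.18, adjusted p = 0.137), 16 (0.0977) or 25 (0.0993) or any of 6 time 0 pigs in turn. EIF4H, which stimulates the helicase, rose by 0.16 (SE 0.054, adjusted p = 0.0236), with adjusted p = 0.0802 without control pig 16 and 0.0524 without control pig 8. EIF4A2 (0.06, SE 0.069), EIF4B (0.07), EIF4E2 (0.14) and the inhibitor gene EIF4EBP2 (0.16) did not pass on the probe sets used.

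Among the scanning and joining factors, EIF5B showed the largest rise. Its log2 level was 7.11 to 7.62 at time 0, with a median of 7.47, and 8.36, 8.06, 7.92 and 8.41 in pigs 18, 8, 16 and 25. The groups did not overlap, and the rise of 0.75 (SE 0.10, adjusted p = 1.54e-05) amounted to 1.69-fold. EIF1 spanned 13.31 to 13.49 at time 0 with a median of 13.44, and read 13.65, 13.56, 13.59 and 13.59 at 9 months. The gap was small, 0.18 (SE 0.054, adjusted p = 0.0136), yet no arrays overlapped; without control pig 18 the adjusted p was 0.0562. The EIF1 paralogue EIF1B differed by 0.03 (SE 0.083).

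On the probe sets used, the genes with an EEF1 symbol did not pass in this comparison (0 of 6 in the limma fit, against 35.0% of all probe sets). They include EEF1AKMT1 and EEF1E1, which are not themselves elongation factors. EEF1A1 passed on another of its probe sets, given below. Before adjustment, 2 of the 6 had a p under 0.05, against 44.5% of all probe sets. EEF1A1, the factor that carries aminoacyl-tRNA, was 9.01 to 9.69 at time 0 and 8.80 to 9.31 in the 9-month controls, a difference of -0.33 (SE 0.14, adjusted p = 0.0729). EEF1B2 and EEF1G, parts of the complex that recharges EEF1A, were close to flat: EEF1B2 was 13.58 to 13.68 against 13.67 to 13.69, and EEF1G 13.31 to 13.40 against 13.30 to 13.33. EEF1AKMT1, a methyltransferase that modifies EEF1A, differed by 0.19 (SE 0.077, adjusted p = 0.0627), and EEF1E1, a scaffold protein of the tRNA synthetase complex, by 0.11 (SE 0.087). A dimmer EEF1E1 probe set averaged 8.06 ± 0.11 (SD, n = 10) at time 0 and 8.36 ± 0.12 (SD, n = 4) in the 9-month controls. EIF5A, which helps ribosomes through difficult peptide stretches, and EIF6, which keeps the subunits apart, differed by -0.04 each and did not pass on the probe sets used.

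In 10 of the 39 genes the 9-month controls and the time 0 arrays did not overlap at all, where 15.2% of all probe sets tested showed no overlap. Pigs 8 and 25, labelled as sampled at both times, can also be read each against itself, though their arrays are part of the same fit. In pig 8 all 13 passing genes moved in the direction of the group, and in pig 25 all but EIF2B1 did (12 of 13). These arrays helped to select the 13 genes, so such agreement was favoured in advance and gives no separate support. EIF4A1 went from 11.36 to 12.31 in pig 8 and from 11.58 to 12.09 in pig 25, and EIF5B from 7.59 to 8.06 and from 7.39 to 8.41.

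The other 2 diets were set against the same time 0 arrays, so the 3 comparisons share them. On the high-fat diet 15 of 39 genes passed, 6 higher and 9 lower (38.5%, against 32.9% of all probe sets), and with resveratrol 15, 7 higher and 8 lower (38.5%, against 35.1%). The same 12 genes passed in all 3 comparisons in 1 direction each, 4 higher (EIF1, EIF4A1, EIF4A3, EIF5B) and 8 lower (EIF2B1, EIF2B3, EIF2B4, EIF2S1, EIF3B, EIF3I, EIF4E, EIF4G3), and 20 genes passed in none. The shared time 0 arrays favour such overlap. The share of all probe sets that passed in all 3 was not counted, so the 12 cannot be set against it. EIF4G3 differed from time 0 by -0.77, -0.61 and -0.85 in controls, on high fat and with resveratrol. EIF5B differed by 0.75, 0.73 and 0.72, and EIF2S1 by -0.75, -0.55 and -0.57. EIF2B4 differed by -0.31, -0.49 and -0.25. Some of these calls depended on 1 pig. EIF2B4 was lost with resveratrol without male 5 (adjusted p = 0.130) and EIF2B3 without female 22 (0.0679). On the high-fat diet EIF4E was lost without pig 27 (adjusted p = 0.0707), 26 (0.0745) or 30 (0.10), and EIF4A3 without the same pigs (up to 0.0767). With resveratrol EIF4A3 was lost without female 21 (0.0953) or 22 (0.0823).

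Some genes passed on 1 diet alone, and a pass on 1 diet does not show that the diets differed. On the high-fat diet these were EEF1A1, which fell by 0.47 (SE 0.14, adjusted p = 0.0132), EIF3M, which rose by 0.26 (SE 0.068, adjusted p = 0.00617), and EIF4EBP2, which rose by 0.36 (SE 0.11, adjusted p = 0.0148). EIF4EBP2 encodes a repressor that binds EIF4E. With resveratrol they were EIF4E2, a cap-binding protein that represses translation (0.31, SE 0.10, adjusted p = 0.0238), EIF1B (0.25, SE 0.083, adjusted p = 0.0236) and EEF1E1 (0.22, SE 0.087, adjusted p = 0.0491). EIF4H passed in the controls alone. Leaving out 1 pig ended the call of EEF1A1 (high-fat male 23, adjusted p = 0.0536), EIF4EBP2 (high-fat female 30, 0.0759), EIF4E2 (resveratrol female 21, 0.115, or 22, 0.0680) and EIF1B (resveratrol female 21, 0.0804, or 22, 0.139). The EEF1E1 call was lost in 15 of 25 alternatives, with adjusted p up to 0.144 (without resveratrol male 5).

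No translation factor differed between the diets at 9 months after adjustment. For the high-fat against the control diet 0 of 39 genes passed in the limma fit, and 0 of all probe sets did (percent called 0), with 1 of 39 at an unadjusted p under 0.05 against 9.06% of all probe sets. For resveratrol against high-fat the counts were 0 of 39 and 0 of all (percent called 0), with 3 of 39 unadjusted against 6.63%. For resveratrol against control they were again 0 of 39 and 0 of all (percent called 0), with 1 of 39 against 3.85%. The median SE of a gene was 0.10 on the log2 scale. The 95% interval lay within 0.5 of 0 for 39, 37 and 39 of the genes in these comparisons, and within 0.3 for 21, 26 and 24.

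**Figure D3:**
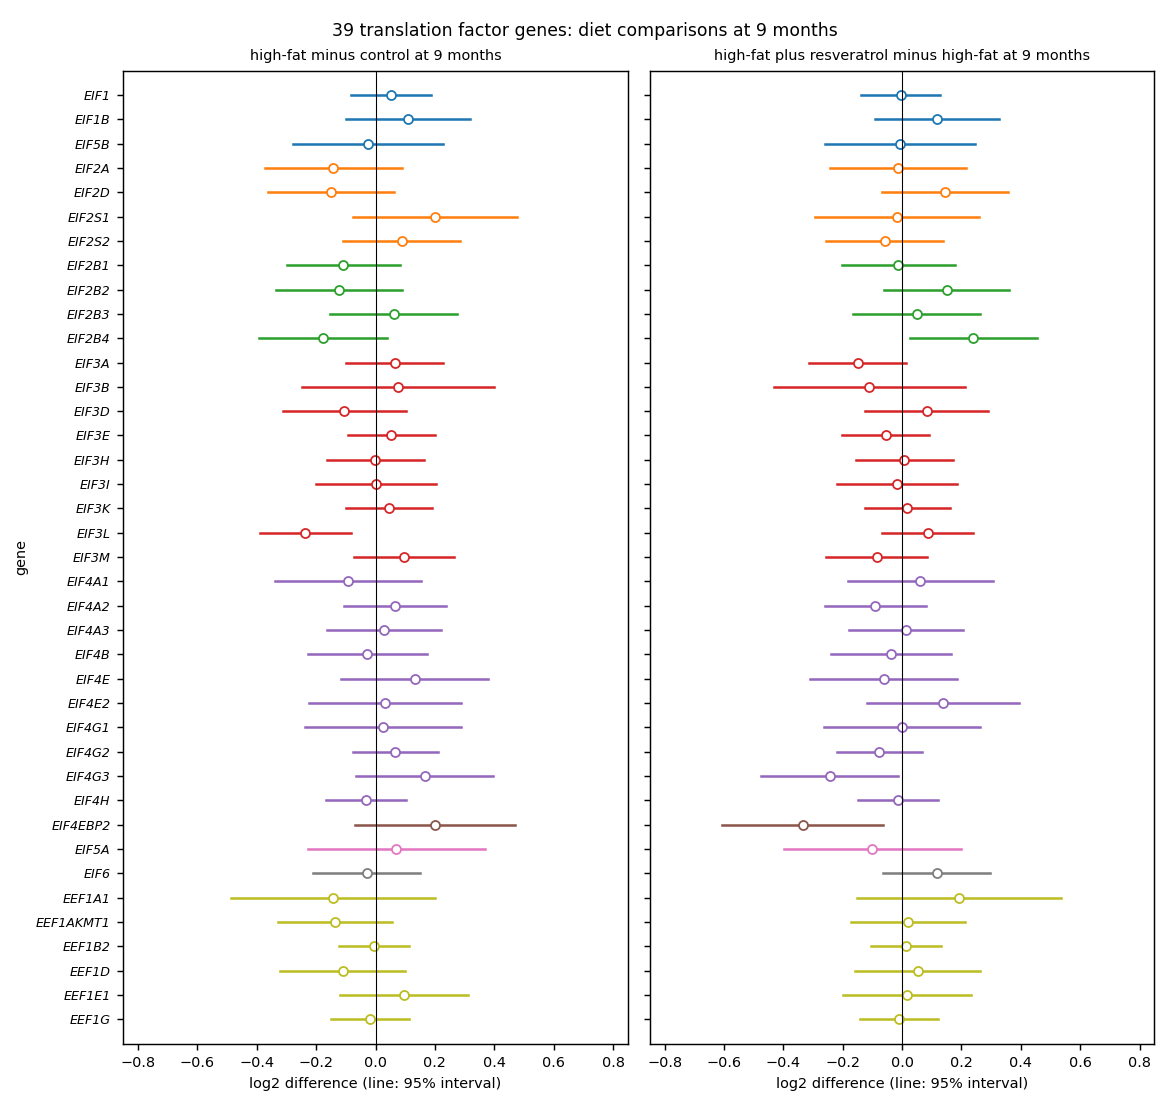
Log2 difference between diets at 9 months for the 39 genes, high-fat minus control (left) and high-fat with resveratrol minus high-fat (right), with 95% intervals and colours by role. EIF3L (-0.24) on the left and EIF4EBP2 (-0.33) on the right had the smallest p, and no gene passed adjustment.

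Between the high-fat and control diets, EIF3L, an EIF3 subunit gene, had the smallest p. Its log2 level was 11.25, 11.11, 11.30 and 11.36 in control pigs 18, 8, 16 and 25, and 11.09, 10.99, 11.02 and 10.97 in high-fat pigs 27, 30, 23 and 26. The groups did not overlap, as in 1 of the 39 genes and in 5.05% of all probe sets. The difference was -0.24 (SE 0.074, adjusted p = 0.330). Within array set C (3 control, 1 high-fat) it was -0.20, and within set D (1 control, 3 high-fat) -0.34.

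The next genes in each direction overlapped between these diets. EIF2B4 was 8.77, 8.78, 8.81 and 8.68 in the controls and 8.38, 8.78, 8.45 and 8.73 on the high-fat diet, a difference of -0.18 (SE 0.10, adjusted p = 0.660). EEF1AKMT1 was 9.83, 9.70, 9.75 and 9.72 against 9.77, 9.72, 9.51 and 9.45, a difference of -0.14 (SE 0.092). In EEF1AKMT1 the high-fat males were the low arrays.

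On the high side, EIF4EBP2 read 8.40, 8.79, 8.61 and 8.53 in the controls and 8.75, 9.04, 8.77 and 8.58 on the high-fat diet (0.20, SE 0.13, adjusted p = 0.712). EIF2S1 read 9.96, 9.80, 10.04 and 10.08 on the high-fat diet, 0.20 above the controls (SE 0.13), and EIF4G3 8.92, 8.88, 8.81 and 9.07, 0.17 above them (SE 0.11). All 3 overlapped with the control arrays, and for EIF2S1 and EIF4G3 the control and high-fat values given here all lay below the time 0 arrays.

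Resveratrol added to the high-fat diet gave the lowest EIF4EBP2 values of the 9-month arrays, and these were both in males. The array carries 5 probe sets of EIF4EBP2, and all its values given here are from the one used. The gene read 8.92 and 8.60 in females 21 and 22 and 8.17 and 8.11 in males 4 and 5, against 8.75, 9.04, 8.77 and 8.58 on the high-fat diet. The male values lay below every high-fat array and the female values inside their range. The difference was -0.33 (SE 0.13, adjusted p = 0.728), and it was -0.47 within array set C (1 high-fat, 3 resveratrol) and 0.13 within set D (3 high-fat, 1 resveratrol). A different effect in females and males was not called for EIF4EBP2 (0.40, SE 0.22, adjusted p = 0.845).

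EIF4G3 was 8.77, 8.53, 8.52 and 8.88 with resveratrol, 0.24 below the high-fat diet (SE 0.11, adjusted p = 0.751), and EIF3A, the largest EIF3 subunit, was 11.53, 11.63, 11.33 and 11.66 against 11.64, 11.72, 11.66 and 11.72 (-0.15, SE 0.078). EIF2B4 was 8.94, 8.95, 8.81 and 8.60 with resveratrol, 0.24 above the high-fat diet (SE 0.10, adjusted p = 0.736). EIF2B2 (9.60, 9.52, 9.62 and 9.75) and EIF2D (8.56, 8.48, 8.17 and 8.06) were 0.15 (SE 0.10) and 0.14 (SE 0.10) above it. In each of these genes the groups overlapped, and none of the 39 was free of overlap here, against 3.81% of all probe sets.

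Against the control diet, EIF1B had the smallest p in the resveratrol group: 11.37, 11.50, 11.30 and 11.25 against 11.20, 11.03, 11.05 and 11.23. The arrays did not overlap, which held for this 1 gene of 39 and for 1.53% of all probe sets. The difference was 0.23 (SE 0.10, adjusted p = 1). EIF2S1 (10.00, 9.78, 9.92 and 10.12) and EIF4E2 (9.04, 8.89, 8.70 and 8.69) were 0.18 (SE 0.13) and 0.17 (SE 0.12) above the control diet. EIF3L (11.05, 11.08, 11.23 and 11.05), EIF2A (10.03, 9.91, 10.38 and 10.57) and EIF2B1 (8.61, 8.61, 8.74 and 8.83) were -0.15 (SE 0.074), -0.16 (SE 0.11) and -0.12 (SE 0.092) from it.

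Cell type markers also had no passing member between the diets. The monocyte list mean was 9.24 ± 0.17 on the control diet, 8.71 ± 0.25 on the high-fat diet and 8.93 ± 0.43 with resveratrol (SD, n = 4 each). The cycling-cell mean was 9.06 ± 0.19, 9.63 ± 0.38 and 9.25 ± 0.20. Sets C and D were uneven over the diets, with 3 and 1 arrays of the controls, 1 and 3 of the high-fat diet and 3 and 1 with resveratrol.

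Females and males at time 0 did not differ in any translation factor after adjustment (0 of 39 in the limma fit), where 1.07% of all probe sets passed. Before adjustment 7 of 39 (17.9%) had a p under 0.05, against 16.4% of all probe sets. EIF1B was the nearest, at 10.97 ± 0.073 in females and 11.24 ± 0.13 in males (SD, n = 5 each), a female minus male difference of -0.27 (SE 0.075, adjusted p = 0.0807). EIF2B1 (0.18, SE 0.066, adjusted p = 0.179) and EIF2B3 (0.21, SE 0.080, adjusted p = 0.198) were next. The 4 EIF2B genes differed by 0.18 to 0.21 in the same direction. Both arrays of set A were female, and without them the adjusted p was 0.326 for EIF1B and 0.604 for EIF2B1.

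At 9 months, over the 3 diets, 2 of 39 genes (5.13%) were higher in females and none lower, near the 6.01% of all probe sets that passed. EIF4A1 was 12.19, 12.13 and 12.32 on average in females fed control, high-fat and resveratrol diets, and 12.02, 11.91 and 11.84 in males (n = 2 each). The female mean was higher on each diet, by 0.29 over the diets (SE 0.066, adjusted p = 0.0165), although female pig 18 (12.07) lay below male pig 25 (12.09). EEF1AKMT1 averaged 9.76, 9.75 and 9.84 in females and 9.74, 9.48 and 9.43 in males, and was higher in females by 0.23 (SE 0.064, adjusted p = 0.0381). EIF4EBP2 did not pass, at 0.29 (SE 0.089, adjusted p = 0.0592), but did without control female 18 (0.0242).

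The EIF4A1 and EEF1AKMT1 calls at 9 months depended on the model and on 1 array at a time. Neither passed in the additive model (adjusted p = 0.0995 and 0.142) or in a fit of the 9-month arrays alone (0.0561 and 0.0622). EIF4A1 also lost its call without control female 8 (0.0605), high-fat male 23 (0.0693) or resveratrol male 4 (0.0528), and EEF1AKMT1 without 11 of the 12 arrays of 9 months in turn, the exception being control male 16, at adjusted p up to 0.0924. Within set C the female minus male difference of EIF4A1 was 0.39 and within set D 0.14, and that of EEF1AKMT1 was 0.26 and 0.19. The sexes at 9 months also differed in some cell markers: CD79B of B cells was higher in females by 0.97, 2 of 3 red cell, 2 of 7 monocyte and 2 of 4 granulocyte markers were lower, and 1 of 9 T cell markers was higher. Of all probe sets, 6.01% passed in this comparison. The part of these markers in the EIF4A1 and EEF1AKMT1 differences was not tested.

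**Figure D4:**
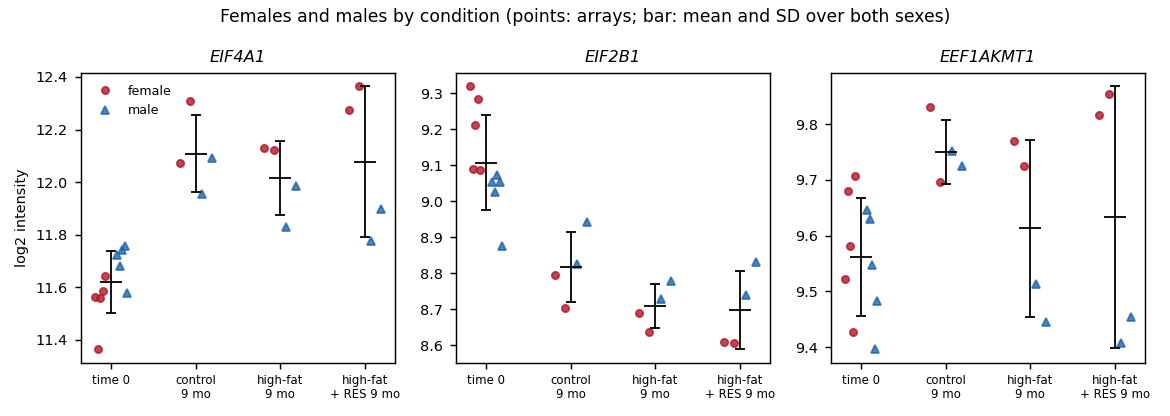
Log2 intensity of EIF4A1, EIF2B1 and EEF1AKMT1 by condition, with circles for females and triangles for males, and the mean and SD over both sexes. EIF4A1 averaged 11.54 in females and 11.70 in males at time 0, and the female mean was the higher on each diet at 9 months.

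The sex difference itself shifted between the times for EIF4A1 and EIF2B1. Females had less EIF4A1 than males at time 0, by 0.15 (11.54 ± 0.11 and 11.70 ± 0.072, SD, n = 5 each), and more at 9 months, so that the difference of differences was 0.44 (SE 0.098, adjusted p = 0.0130). EIF2B1 went the other way: 9.20 ± 0.11 in females and 9.02 ± 0.080 in males at time 0, and a female minus male difference of -0.13 at 9 months, a shift of -0.32 (SE 0.090, adjusted p = 0.0401). These 2 of 39 genes (5.13%) compare with 7.34% of all probe sets that passed. The EIF2B1 call was lost in 18 of 32 alternatives, with adjusted p up to 0.111 (without the set A arrays), 15 of which left out 1 array. EIF5A came next at 0.44 (SE 0.14, adjusted p = 0.0670), and passed without time 0 female 20 (0.0289) or control male 16 (0.0325).

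The diet effects did not differ between the sexes for any of the 39 genes (0 of 39 in the limma fit in either contrast, and 2 of 39 in each before adjustment at 0.05, against 11.7% of all probe sets for high-fat and 5.85% for resveratrol). For the high-fat effect, where 0.00580% of all probe sets passed, the smallest p values belonged to EIF4E (-0.57, SE 0.21, adjusted p = 0.397), EIF2D (0.38, SE 0.17) and EEF1A1 (0.56, SE 0.27). For the resveratrol effect, where 0.0116% passed, they belonged to EIF6 (0.36, SE 0.16, adjusted p = 0.842), EIF2A (-0.37, SE 0.17) and EIF4B (0.34, SE 0.16). The median SE of 0.17 left intervals wider than 0.5 for most of the genes: 19 of 39 and 18 of 39 lay within 0.5 of 0.

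For 15 of the 39 genes the array carries more than 1 probe set, and these did not always give the same answer. In the comparison of the 9-month controls with time 0, 7 of the 15 had a probe set with the opposite sign, and in 5 only a probe set other than the one used passed. A probe set of opposite sign was also present in 6 of the 15 for high-fat against control and in 9 for resveratrol against high-fat, where no probe set passed. EIF1 rose on both of its probe sets (0.18 and 0.43, adjusted p = 0.0136 and 1.51e-04). EIF5B rose on the brightest probe set alone: a dimmer one differed by -0.12 (SE 0.12, adjusted p = 0.438), and the last did not pass the filter. The other probe sets of EIF4H and EIF2B1 differed by -0.26 (SE 0.13, adjusted p = 0.132) and -0.05 (SE 0.11, adjusted p = 0.737).

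EIF5A was the clearest case. The probe set used was 10.66 to 11.37 at time 0 and 10.91 to 11.26 in the 9-month controls, while the other fell by 1.23 (SE 0.23, adjusted p = 4.34e-04), from 10.36 ± 0.41 (SD, n = 10) to 9.13 ± 0.63 (SD, n = 4). EIF4B differed by 0.07 on the probe set used, and rose by 0.88 (SE 0.095, adjusted p = 1.38e-06) on the other, from 10.93 ± 0.14 to 11.80 ± 0.082. EEF1A1 was read by 3 probe sets, at -0.33, -0.25 and 0.37, the last of which passed (adjusted p = 0.00888). On the high-fat diet against time 0 the EEF1A1 probe sets passed in opposite directions, -0.47 (adjusted p = 0.0132) and 0.54 (adjusted p = 5.55e-04), so EEF1A1 has no settled direction here. The 3 EF1A control probe sets of the array differed by -0.038, 0.083 and 0.091 between the 9-month controls and time 0.

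**Figure D5:**
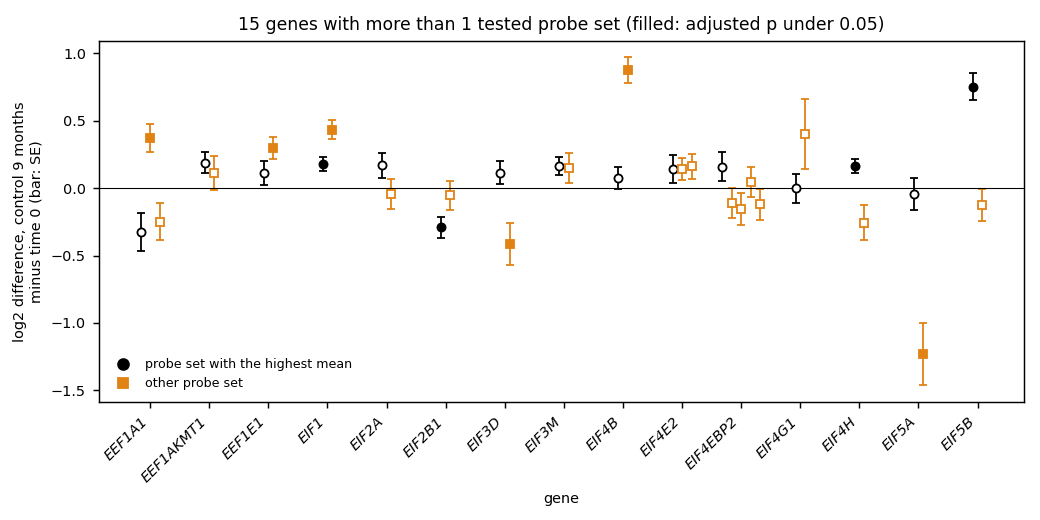
Log2 difference of the control diet at 9 months minus time 0 for each tested probe set of the 15 genes with more than 1, with the SE (circles, the probe set used; squares, the others; filled, adjusted p under 0.05). The probe sets of EIF5A (-0.04 and -1.23) and EIF4B (0.07 and 0.88) lie far apart.

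The translation factors varied little between pigs of the same group. The median within-group SD of the 39 genes was 0.10, against 0.18 over all probe sets tested, and 38 of the 39 were below that median. Their median mean level was 10.90, against 7.28, so that brighter and dimmer probe sets are compared here. The smallest SD belonged to EEF1B2 (0.026), EIF1 (0.034) and EEF1G (0.037), whose probe sets also had the highest mean log2 values of the 39 (13.67, 13.53 and 13.33). The largest belonged to EEF1A1 (0.20), EIF5B (0.17) and EIF4E2 (0.17). The lowest mean log2 values were those of EIF4E (6.11), EIF2B3 (7.54) and EIF5B (7.84). Brightness also depends on the probes, so these values do not rank the genes.

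Genes that act around the factors were read from lists by function, and 21 of the 49 listed were tested. Between the 9-month controls and time 0, 9 were higher and 8 lower (81.0%, against the 35.0% of all probe sets). The lists were chosen with earlier results of these data known. Their shares, here and below, are therefore no test of the lists as a group. Of 5 genes of the integrated stress response, which follows EIF2 phosphorylation, 4 rose: the transcription factors ATF4 (0.61, SE 0.063, adjusted p = 8.25e-07) and DDIT3 (0.86, SE 0.13, adjusted p = 6.39e-05), and the phosphatase subunits PPP1R15A (0.63, SE 0.21, adjusted p = 0.0206) and PPP1R15B (0.26, SE 0.082, adjusted p = 0.0162), which reverse that phosphorylation. ASNS, the asparagine synthetase gene that ATF4 induces, differed by -0.26 (SE 0.20, adjusted p = 0.323). EIF2AK2, a kinase of EIF2 that senses double-stranded RNA, fell by 0.89 (SE 0.25, adjusted p = 0.00967).

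Of 6 genes of mTOR and MNK signalling, RHEB, the GTPase that activates mTOR, rose by 0.77 (SE 0.12), and TSC1, part of the complex that switches RHEB off, rose by 0.37 (SE 0.11), while the kinase PDPK1 fell by 0.48 (SE 0.093). The poly-A binding protein genes PABPC1 (0.16, SE 0.051, adjusted p = 0.0163) and PABPC4 (0.27, SE 0.10, adjusted p = 0.0498) rose and their partner PAIP1 fell by 0.29 (SE 0.089, adjusted p = 0.0153). DHPS, which makes the hypusine of EIF5A, fell by 0.63 (SE 0.098). Of the genes for the diphthamide of EEF2, DPH3 rose by 0.41 (SE 0.14) and DPH5 fell by 0.44 (SE 0.12). All 3 mitochondrial elongation factors fell: TUFM by 0.61 (SE 0.11, adjusted p = 0.000214), GFM1 by 0.58 (SE 0.12, adjusted p = 0.00101) and TSFM by 0.30 (SE 0.12, adjusted p = 0.0481). The calls of PABPC4 and TSFM lay close to the threshold of 0.05. None of the termination genes listed was measured.

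Of these 21 genes, 13 passed on the high-fat diet against time 0 (6 higher, 7 lower; 61.9%, against 32.9% of all probe sets). With resveratrol 13 passed as well (7 higher, 6 lower; 61.9%, against 35.1%). ATF4 differed from time 0 by 0.61, 0.51 and 0.56 in controls, on high fat and with resveratrol, and DHPS by -0.63, -0.62 and -0.59. Other genes were less steady. EIF2AK2 (adjusted p = 0.188 on high fat, 0.0505 with resveratrol), PABPC1 (0.143, 0.0767), PABPC4 (0.455, 0.34) and TSFM (0.212, 0.117) passed in the controls alone. PAIP1 (0.462) and TSC1 (0.203) did not pass on high fat. AKT1 (0.0353) and TSC2 (0.0197) passed on high fat alone. None passed between the diets, where the smallest p belonged to MKNK1, a kinase of EIF4E, for high-fat against control (-0.45, SE 0.12, adjusted p = 0.285), followed by ASNS (0.65, SE 0.24, adjusted p = 0.398). For resveratrol against high-fat they belonged to PAIP1 (-0.25, SE 0.11, adjusted p = 0.737) and ASNS (-0.50, SE 0.24, adjusted p = 0.753). In the sexes at 9 months 1 of the 21 passed (4.76%, against 6.01% of all probe sets). It was PABPC4, higher in females by 0.31 (SE 0.075, adjusted p = 0.0232).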

How the data were processed

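The values are RMA intensities that the authors deposited on a linear scale, 1 per probe set and array of total RNA; the submitters' processing notes name GCOS, RMA and, with version 1.1, Expression Console. Log2 was taken here after a floor of 1. Of 23999 probe sets, with 124 controls set aside, 17240 (71.8%) passed the filter (log2 above 5 in at least 2 arrays). Symbols came from the array's annotation; 38 of 39 members matched the pig gene table by Entrez ID and EIF2S2 was not in it. No sequences or coordinates were used here.

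Comparisons used limma 3.58.1 in R 4.3.3 (statmod 1.5.0 for blocks), two-sided, with Benjamini-Hochberg adjustment over all 17240, and were tested on simulated data. Conditions were compared in a fit of all 22 arrays with sex as an additive term, sexes in a fit of 8 group means. P-values measure the spread between pigs, and the number of arrays limits the precision.

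By rule, array values were given for the 3 members of smallest p in each direction of a condition comparison, and the text named the 3 smallest p of each sex comparison and the 3 highest and lowest mean levels; any other member could be named. The members, lists and naming rule were chosen with earlier results of these data known. Comparisons of the high-fat and resveratrol diets with time 0, and of the sex difference between times, were added after seeing the data. Pigs 8 and 25 carry the same number in the labels at both times. A check of this pairing over probe sets gave correlations of -0.06 and 0.20, against at most 0.35 and 0.20 with other time 0 pigs. Pig 8 thus matched another pig better than itself and pig 25 about equally, so the check did not bear out the pairing. Alternatives covered blocks, weights, filters, normalization, models and leaving out each array.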

Additional observations from a re-analysis of the deposited data

Results flagged for a closer look

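A few arrays stood apart from the rest of their group in a gene described above, by a gap that took up most of the group's range. EEF1E1 read 9.18 in control male pig 16 at 9 months, with the other 3 controls at 9.54 to 9.60. In control female pig 8 at 9 months EIF4A3 read 11.33 (others 11.14 to 11.15) and EIF4E2 8.81 (others 8.60 to 8.63). At time 0, EIF1B read 11.47 in male pig 24 (other males 11.15 to 11.23), and EIF2B1 read 8.88 in male pig 25 (other males 9.03 to 9.07). These are 5 of 140 pairs of a gene and a group of arrays, or 3.57%, and chance alone gives about 1 in 20.

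The shift of the female minus male difference between time 0 and 9 months was 0.444 for EIF4A1 and -0.315 for EIF2B1 on the log2 scale, by the limma test of the difference itself.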

How the results depend on the processing

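Across 76 results on single translation factors, no called difference changed sign, a call was lost 89 times and gained 4 times, and 58 results had no call lost or gained. The 58 include results that were not called in the reported model, among them all those between diets. Such results had no call to lose, so the 58 do not measure how firm the calls were. One uncalled difference turned its sign, EIF4EBP2 with resveratrol against high-fat (-0.33, and 0.13 within array set D). The count of passing members kept within 1.5 times of its value for the 9-month controls against time 0 (13; 12 to 18 under the alternatives run), and stayed at 0 between diets. Without each array in turn the time counts were 12 to 14 for controls, 12 to 15 for high-fat and 10 to 16 for resveratrol. With the pig as a replicate block the counts were 12, 15 and 14, 0 between diets, and 2 for the sexes at 9 months and for the shift in sex difference; the block ended the calls of EIF4A3 in controls (adjusted p = 0.0501) and EEF1E1 with resveratrol (0.0527) and changed no other call among these 76 results. Genes of the function lists were not run under the alternatives. With the spike-in set as a random block the time counts were 12, 13 and 12.

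The sexes at 9 months gave 2 calls in the model reported, 0 in the additive model, 0 with only the 9-month arrays, and 0 to 4 when leaving out 1 array. The shift in sex difference gave 2, against 1 with array weights, 1 with no filter, 1 without the set A arrays, 4 with limma-trend, 4 with all probe sets of the genes, and 1 to 3 when leaving out 1 array; the cause was not tested. The alternative without set A was chosen after seeing the data.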
